A study of Mus musculus with 36 samples.

Results

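Transcript levels of 10 genes of the platelet-derived growth factor (PDGF) axis and of commonly used cancer fibroblast markers were described in mouse pancreatic fibroblasts cultured alone or together with tumour cells. The genes were the ligands Pdgfa, Pdgfb and Pdgfc, the receptors Pdgfra and Pdgfrb, the cell surface markers Fap, Pdpn and Thy1, and the intracellular markers S100a4 and Des. They were taken by symbol, as 10 of the 39017 genes of the deposited count table, and all 10 passed the filter on low counts that left 14439 genes for testing. RNA sequencing covered 36 libraries in 9 groups of 4: fibroblasts in mono-culture, and fibroblasts kept for 48 h in co-culture with tumour clone E, H, K, M, N, T or V or with KPC1, which the labels name but do not describe. The fibroblasts of every group were of the C57BL/6 strain, and the tumour cells, which carried green fluorescent protein (GFP), were separated from them by flow sorting before RNA extraction. The labels name no genotype or further treatment, and they do not say whether the mono-culture was also sorted or whether the 4 libraries of a group came from separate cultures. P-values therefore measure the spread between these libraries, which may be technical. Each co-culture used 1 clone or KPC1, and the 8 are called tumour lines below.

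PDGF chains are secreted as dimers that bind and pair the receptor tyrosine kinases PDGFRα and PDGFRβ on mesenchymal cells, where they drive proliferation, migration and matrix production. PDGFRα binds the A, B and C chains, whereas PDGFRβ binds mainly the B and D chains, and PDGF-C needs extracellular cleavage before it can bind. In the pancreas, stellate cells and fibroblasts carry these receptors, tumour cells are a known source of ligand, and fibroblast activation protein, podoplanin, THY1, S100A4 and desmin are used to recognise or sort fibroblast subsets in tumours.

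Library totals lay between 12532122 and 21985538 counts. Levels are given as CPM, counts brought to a common library total with scaling by the trimmed mean of M-values (TMM). Levels of different members are compared only in RPKM, which divides by gene length as well as by library total. Sums over marker lists, and the share of single genes in them, are in CPM and take no account of gene length. The fibroblast label was checked with 10 fibroblast genes, whose summed level was 25981 to 28771 CPM in mono-culture and 19241 to 42798 CPM in co-culture libraries. Col1a1 had a mean of 7268 CPM in mono-culture and 6722 CPM in co-culture, and Fn1 4835 and 7924 CPM. The summed level of 12 epithelial and tumour cell genes was 0.989 to 1.76 CPM in the mono-culture and 20.02 to 866 CPM in the 32 co-culture libraries. Most of it came from Krt18, Krt8, Krt19, Cldn6 and Cdh1, whereas Epcam had 3 counts or fewer in 33 of 36 libraries, and Cldn4 and Esrp1 in all 36. The pericyte and smooth muscle list of 9 genes had 215.8 to 314 CPM in mono-culture and 342 to 1389 CPM in co-culture, carried by Acta2, Notch3 and Mcam, and its genes Kcnj8 and Abcc9 had 3 counts or fewer in 29 libraries each. Defining genes of other cell types were at or near 0: Ptprc and Itgam for leukocytes, Cdh5 and Tie1 for endothelium, Sox10 for Schwann cells and Upk1b, Lrrn4 and Wt1 for mesothelium had 3 counts or fewer in each of the 36 libraries, as had Lrat, a gene of quiescent stellate cells, while Gfap and Ngfr, also on the stellate list, had so few in 30 and 31. The titles of the mono-culture libraries carry the letters PSC, which the labels do not spell out, and the cell type label of all groups is pancreatic fibroblasts. The summed leukocyte list (6 of the 7 genes were in the table) ranged from 1.44 to 16.2 CPM, the endothelial list from 1.68 to 6.63 CPM and the Schwann list from 1.42 to 7.47 CPM over all libraries. The mesothelial list, which shares Krt19 with the epithelial one, had 8.82 to 15.2 CPM in mono-culture and 4.09 to 201 CPM in co-culture, and the stellate list, which holds Des, 114 to 157 CPM and 95.9 to 221 CPM. Since these are bulk libraries, fewer cells of a type and less RNA per cell cannot be told apart.

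Fap, Pdgfb and Pdgfc were called higher than in mono-culture with each of the 8 tumour lines, and S100a4, Pdpn and Pdgfra were lower wherever they were called. Calls rest on edgeR's quasi-likelihood test with Benjamini-Hochberg adjustment over all 14439 genes and a threshold of 0.05. The SE given with a log2 fold change was calculated back from that test. It is the absolute log2 fold change divided by the square root of the F statistic, and was not fitted separately. Averaged over the 7 clones, 9 of the 10 members were called, 6 higher and 3 lower, where 49.2% of all genes tested were called, 24.3% higher and 24.9% lower. The median log2 fold change of the 10 members in this contrast was 0.38, beside 0.01 over all genes. By tumour line, the call was made for 7 members with clone E (background 32% of genes), 9 with clone H (54.2%), 6 with clone K (19.1%), 6 with clone M (23%), 6 with clone N (39%), 9 with clone T (49.8%), 8 with clone V (58.3%) and 9 with KPC1 (59%). The 3 members called higher in all 8 co-cultures stand beside 3.42% of all genes. Among these calls, that of Pdgfb with clone M was near the threshold (adjusted p = 0.0476). It was lost in 22 of the 36 fits that left out 1 library. Only Des among the members was called higher with one line and lower with others, a pattern found in 5.35% of genes. All these comparisons share the same 4 mono-culture libraries.

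**Figure D1:**
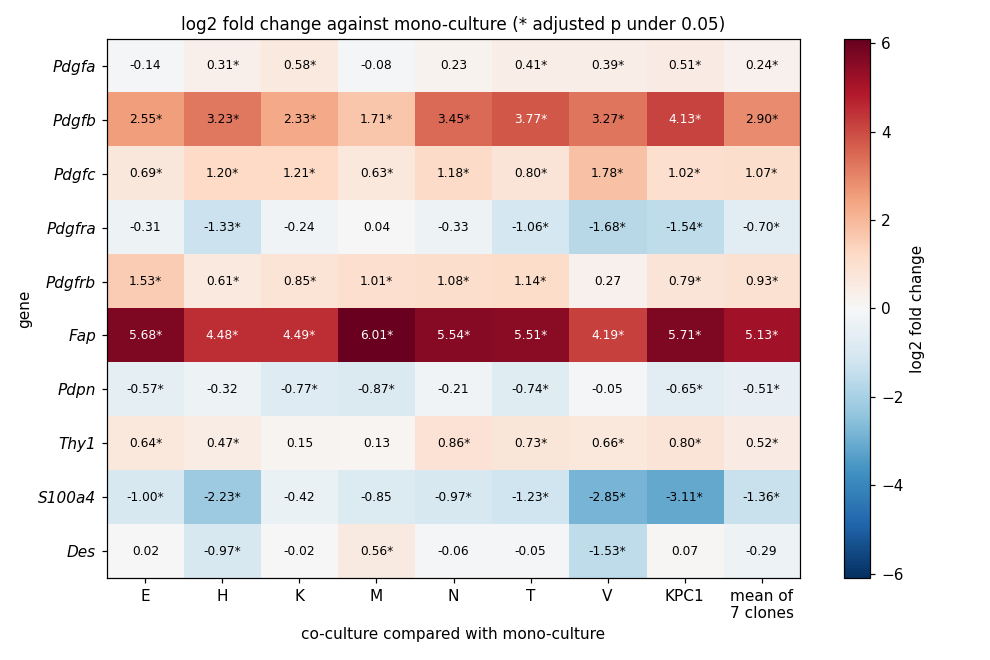
Fitted log2 fold change of each member (rows) in each co-culture and in the mean of the 7 clones (columns) against mono-culture; colour runs from blue (lower) to red (higher), and an asterisk marks an adjusted p under 0.05 in edgeR's quasi-likelihood test. Fap has the highest value in every column, from 4.19 with clone V upwards, and S100a4 the lowest single value, −3.11 with KPC1.

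Pdgfc (platelet-derived growth factor C; ENSMUSG00000028019, chromosome 3, 81036416 to 81214040, plus strand in GRCm38, the assembly called mm10) encodes a chain that is secreted in latent form. In mono-culture the 4 libraries, in the order of replicates 1 to 4 used throughout, had 16.7, 18.1, 19.5 and 18.1 CPM. Co-culture libraries had 36, 26.6, 29.4 and 24.7 CPM with clone E, 41, 41, 45.6 and 38.7 with clone H, 45.8, 37.8, 45.1 and 39.3 with clone K, and 27.1, 30.6, 27.5 and 26.7 with clone M. The other lines gave 51, 40.8, 37.1 and 35.2 CPM with clone N, 35.3, 34.6, 31.1 and 25.6 with clone T, 65.4, 65.1, 56.9 and 60.8 with clone V, and 39, 43.3, 35.6 and 28.8 with KPC1. Every co-culture library lay above every mono-culture library, and those with clone V lay above all others. The rise ran from 1.54-fold with clone M (log2 fold change 0.63, SE 0.125, adjusted p = 3.65e-04) to 3.43-fold with clone V (1.78, SE 0.126, adjusted p = 3.12e-12). For the mean of the 7 clones it was 2.1-fold (SE of the log2 value 0.102, adjusted p = 6.06e-10), higher in 28 of 28 libraries.

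The promoter windows of Pdgfc and of S100a4 and Pdgfra are shown because the first gene rose with every line and the other pair fell together with clones H, T and V and KPC1. Each window is RefSeq sequence of GRCm38.p6, 250 bases before to 50 bases after the annotated start, on the plus strand: chr3:81036166-81036465 for Pdgfc, chr5:75152001-75152300 for Pdgfra and chr3:90603520-90603819 for S100a4. Capitals mark matches, on either strand, to the 4 motifs searched: the AP-1 motif TGANTCA, the GC box motif GGGCGG, the TATA box motif TATAAA and the TEAD motif GGAATG.
Pdgfc promoter: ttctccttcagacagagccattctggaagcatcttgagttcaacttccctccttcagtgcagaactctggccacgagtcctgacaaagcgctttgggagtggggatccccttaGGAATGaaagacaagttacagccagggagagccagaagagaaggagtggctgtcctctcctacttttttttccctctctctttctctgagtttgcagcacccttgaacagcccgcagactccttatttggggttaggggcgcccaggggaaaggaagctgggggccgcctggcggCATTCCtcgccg
Pdgfra promoter: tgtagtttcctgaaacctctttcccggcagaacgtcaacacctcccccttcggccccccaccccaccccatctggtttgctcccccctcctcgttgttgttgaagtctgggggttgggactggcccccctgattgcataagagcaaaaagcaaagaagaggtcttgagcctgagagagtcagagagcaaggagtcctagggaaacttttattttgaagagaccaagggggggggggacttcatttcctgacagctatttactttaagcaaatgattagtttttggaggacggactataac
S100a4 promoter: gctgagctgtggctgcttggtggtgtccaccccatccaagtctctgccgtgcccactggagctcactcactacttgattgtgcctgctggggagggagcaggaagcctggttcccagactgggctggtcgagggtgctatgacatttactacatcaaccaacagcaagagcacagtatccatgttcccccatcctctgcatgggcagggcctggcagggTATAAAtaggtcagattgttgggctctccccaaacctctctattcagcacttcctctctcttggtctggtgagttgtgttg
Counted from 1 at the 5′ end, the Pdgfc window held the TEAD letters at 114 and, on the other strand, at 289, behind the start. The S100a4 window held the TATA box letters at 220, ahead of the start. The Pdgfra window held none of the 4. Of 32851 promoter windows of this length, 7.81% held the AP-1 letters, 35.7% the GC box, 13.6% the TATA box and 14.7% the TEAD letters. A match describes the letters only. Windows were on hand for 6 of the 10 members, and the windows of Pdgfa, Pdpn and Des held GC boxes only.

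Pdgfb (platelet-derived growth factor B; ENSMUSG00000000489, chromosome 15, 79995874 to 80014977, minus strand in GRCm38), a ligand of both receptors, had 1.38, 1.21, 0.837 and 1.1 CPM in mono-culture, on 11 counts or more. With the clones the values were 9.91, 4.32, 7.91 and 4.79 CPM with clone E, 6.89, 6.26, 18.4 and 11.5 with clone H, 3.82, 1.17, 10.4 and 7.47 with clone K, and 2.11, 1.09, 7.45 and 4.33 with clone M. Group means were higher with the remaining lines, whose libraries had 11.1, 12.51, 12.9 and 13.6 CPM with clone N, 18.9, 12.53, 15.7 and 15.5 with clone T, 5.34, 3.66, 14.8 and 20.6 with clone V, and 33.5, 15.7, 19.8 and 11.1 with KPC1. The groups did not overlap with mono-culture for 6 of the 8 lines, and 1 library each of clones K and M lay within the mono-culture range. The fold increase was 17.5 with KPC1 (log2 fold change 4.13, SE 0.609, adjusted p = 1.34e-06), 13.6 with clone T (adjusted p = 8.09e-06), 5.01 with clone K (adjusted p = 0.00669) and 3.27 with clone M (adjusted p = 0.0476). The clone M call was lost in 22 of the 36 fits that left out 1 library, with a log2 fold change of 1.11 and an adjusted p of 0.291 without its replicate 3. It was also lost without scaling beyond library size (0.0508), without the filter on low counts (0.0975) and by limma on log2(RPKM + 1) (0.212), the last of which ended the clone K call too (0.0597). Within co-cultures Pdgfb moved with the epithelial list: the library lowest in that list was also lowest in Pdgfb in 7 of 8 co-cultures, and the library highest in the list was highest in Pdgfb in 5. Between lines the order was shared only in part. Clones N and T and KPC1 had the highest list means, at 552, 538.2 and 376.8 CPM. They also had the highest Pdgfb means, at 12.52, 15.67 and 20.03 CPM, but in reverse order among themselves. The lowest list mean, 108.6 CPM, was with clone V at 11.1 CPM of Pdgfb, and the lowest Pdgfb mean, 3.75 CPM, with clone M at a list mean of 264 CPM. The summed epithelial level with clone M was 148, 55.7, 559 and 292 CPM and with clone K 54.2, 20.02, 255 and 315 CPM in replicates 1 to 4. The part of RNA from tumour cells in the Pdgfb result was not tested, and counts of tumour and fibroblast origin carry no mark of their source in these tables.

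**Figure D2:**
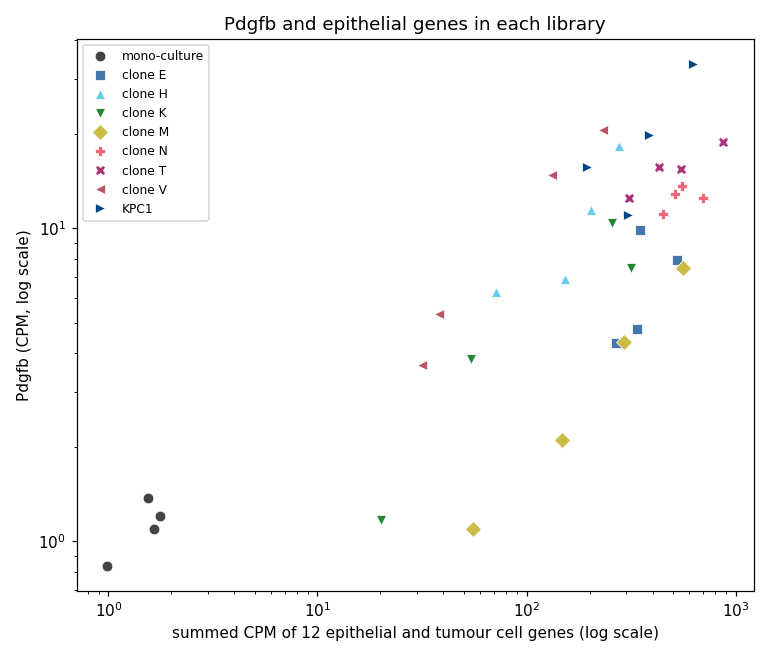
Pdgfb level (CPM, log axis) against the summed level of the 12 epithelial and tumour cell genes (CPM, log axis), 1 point per library and 1 symbol per group of 4. The 4 mono-culture libraries sit at the lower left, at most at 1.38 CPM of Pdgfb and 1.76 CPM of the list, and the lowest co-culture libraries of clones K and M, at 1.17 and 1.09 CPM of Pdgfb, are the lowest of their groups in the list too.

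Pdgfa (platelet-derived growth factor A; ENSMUSG00000025856, chromosome 5, 138976014 to 138997370, minus strand in GRCm38), a ligand of PDGFRα, changed least among the ligands. It ranged over 12.4 to 16.3 CPM in mono-culture, 11.6 to 14.8 CPM with clone E and 10.8 to 15.4 CPM with clone M, which overlapped. It was called higher with 5 lines, by 1.5-fold with clone K (21.5 ± 4.16 CPM, SD, n = 4, adjusted p = 0.00176), 1.42-fold with KPC1 (20.4 ± 1.99 CPM, adjusted p = 0.00144), 1.33-fold with clone T (adjusted p = 0.0109), 1.31-fold with clone V (adjusted p = 0.0121) and 1.24-fold with clone H (adjusted p = 0.0457). Every library lay above the mono-culture range with clones T and V and KPC1 only. The mean clonal rise of 1.18-fold had an adjusted p of 0.0471 and was not called in 24 of the 36 fits that left out 1 library, with a highest adjusted p of 0.203 without mono-culture replicate 2, nor without scaling beyond library size (0.147). The clone H call was lost in 18 such fits (highest adjusted p 0.17, without clone H replicate 3) and in DESeq2 (0.0502). The clone V call was lost in 2 fits, without mono-culture replicate 2 (0.0502) or clone V replicate 3 (0.0725), as well as without scaling beyond library size (0.0548).

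**Figure D3:**
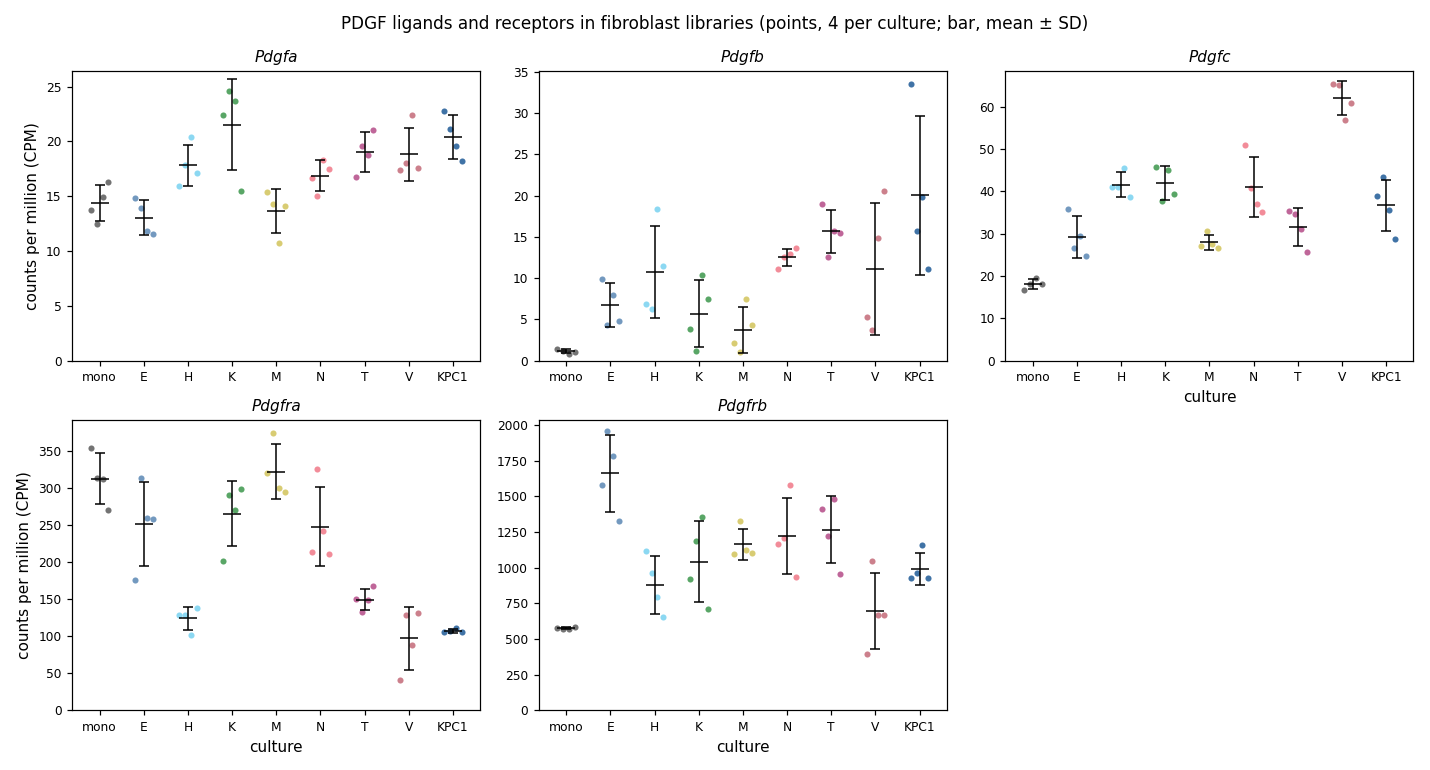
Levels of the 3 ligands and 2 receptors in each library (points, CPM on linear axes from 0), by culture, with the mean and SD of 4 libraries. Pdgfc lies above its mono-culture range of 16.7 to 19.5 CPM in every co-culture library, Pdgfra lies below its mono-culture range in every library with clones H, T and V and KPC1, and Pdgfrb spans only 568 to 585 CPM in mono-culture.

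Pdgfra (PDGF receptor alpha; ENSMUSG00000029231, chromosome 5, 75152292 to 75198215, plus strand in GRCm38), the receptor that also marks many resident fibroblasts, fell with 4 of the 8 lines and was not called with the others. Mono-culture libraries had 353, 314, 312 and 269.5 CPM. The lines with a call gave 128, 129, 102 and 138 CPM with clone H, 149.6, 132, 149 and 167 with clone T, 40.6, 128, 88.3 and 131 with clone V, and 105, 107, 111 and 105 with KPC1. The lines without a call gave 176, 314, 259 and 258 CPM with clone E, 202, 290.4, 270 and 299 with clone K, 320, 374, 299 and 294 with clone M, and 213, 325, 242 and 210.5 with clone N. With the first 4 lines every library lay below the mono-culture range, and with the other 4 the groups overlapped. The level was 3.21-fold lower with clone V (log2 fold change −1.68, SE 0.218, adjusted p = 1.44e-07), 2.92-fold lower with KPC1 (adjusted p = 5.58e-07), 2.52-fold lower with clone H (adjusted p = 6.82e-06) and 2.09-fold lower with clone T (adjusted p = 1.40e-04). Clone N, the next in the order of levels, had an adjusted p of 0.222 against mono-culture (log2 fold change −0.33, SE 0.212) and differed from clone T itself (adjusted p = 0.0313). The mean clonal change was −0.70 on the log2 scale (SE 0.151, adjusted p = 2.90e-04), with 19 of 28 libraries below the mono-culture range and 1 above it.

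Pdgfrb (PDGF receptor beta; ENSMUSG00000024620), the receptor for B chains that is also the standard marker of pericytes, rose with 7 of the 8 lines. Mono-culture libraries lay close together at 579.8, 568, 572 and 585 CPM. Co-culture gave 1582, 1956, 1787 and 1331 CPM with clone E, 1117, 961, 792 and 652 with clone H, 918, 1185, 1354 and 709 with clone K, and 1098, 1326, 1123 and 1106 with clone M. The other lines gave 1166, 1207, 1579 and 935 CPM with clone N, 1410.5, 1224, 1481 and 958 with clone T, 397, 1044, 668 and 666 with clone V, and 926, 961, 1160.1 and 927 with KPC1. Except with clone V, whose replicate 1 lay below and whose 3 other libraries lay above the mono-culture range, every co-culture library was higher than every mono-culture library. The rise was 2.89-fold with clone E (log2 fold change 1.53, SE 0.213, adjusted p = 2.26e-06), 2.2-fold with clone T (adjusted p = 4.58e-05) and 1.53-fold with clone H (adjusted p = 0.0143). With clone V the log2 fold change was 0.27 (SE 0.209, adjusted p = 0.279), which became 0.47 (adjusted p = 0.0464) without clone V replicate 1 and 0.0038 (adjusted p = 0.99) without clone V replicate 2. The clone H call was lost without clone H replicate 1 (log2 fold change 0.47, adjusted p = 0.0719). The pericyte and smooth muscle list was higher in the co-culture libraries too, with mean Notch3 at 95.8 CPM in mono-culture and 296 CPM over co-cultures, Acta2 at 143 and 394 CPM and Mcam at 9.22 and 62.5 CPM, whereas Rgs5 was at 1.81 and 0.544 CPM. Their part in the Pdgfrb result was not tested.

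The receptors thus moved apart, and their ratio per library, computed in RPKM after their values had been seen and given without a test, separates the mono-culture from the co-cultures. Pdgfrb in RPKM was 2.35 ± 0.28 times Pdgfra in mono-culture (SD, n = 4, 2.07 to 2.74). The ratio was 4.56 ± 0.205 for clone M, 5.05 ± 1.46 for clone K and 6.34 ± 1.54 for clone N. Clone E stood at 8.59 ± 2.02, and the rest lay higher, at 9.04 ± 2.16 for clone H, 9.62 ± 2.45 for clone V, 10.8 ± 2.44 for clone T and 11.7 ± 0.993 for KPC1. The lowest co-culture library, clone K replicate 4, stood at 2.99. With clones M, K, N and E the higher ratio went with a higher Pdgfrb level and no call for Pdgfra, with clone V with a lower Pdgfra level and no call for Pdgfrb, and with clones H and T and KPC1 both genes were called in opposite directions.

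**Figure D4:**
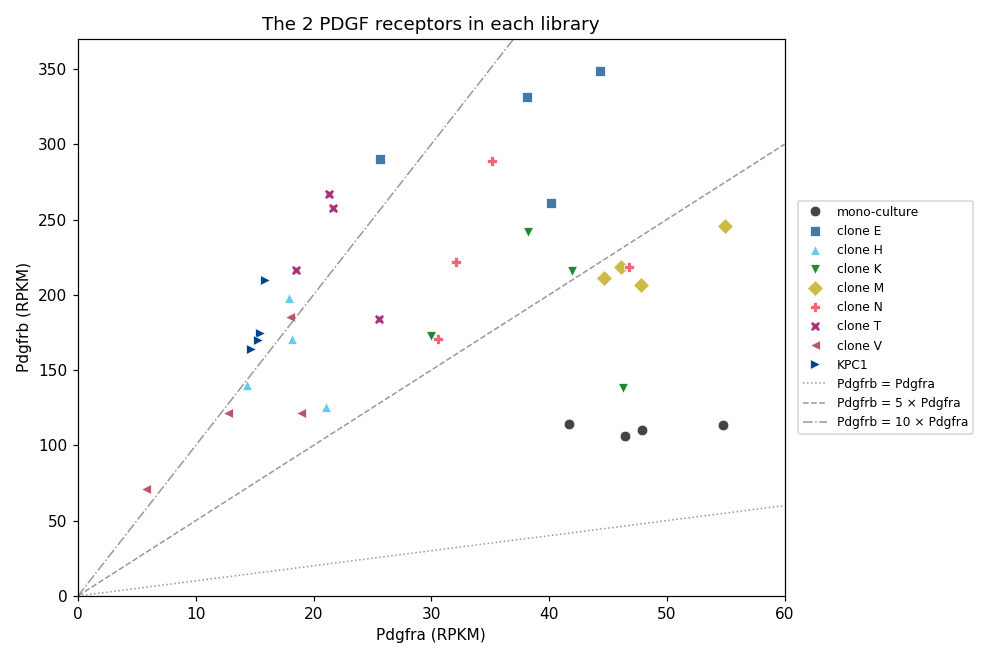
Pdgfrb against Pdgfra in each library, both in RPKM on linear axes, with 1 symbol per group of 4 and grey lines where Pdgfrb equals Pdgfra or is 5 or 10 times as high. The mono-culture libraries form a cluster at 41.7 to 54.8 RPKM of Pdgfra and 106 to 114 RPKM of Pdgfrb. Every co-culture library lies above it except clone V replicate 1, at 71.3 RPKM of Pdgfrb. Clones H, T and V and KPC1 also lie to its left, as do some libraries of clones E, K and N.

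Fap (fibroblast activation protein alpha; ENSMUSG00000000392, chromosome 2, 62500943 to 62574075, minus strand in GRCm38), a serine peptidase of the cell surface, showed the largest rise of the 10 genes. It had 0.881, 1.26, 1.52 and 0.64 CPM in mono-culture, on 14 counts or more per library. Co-culture gave 46.2, 67.3, 50.9 and 49.2 CPM with clone E, 25.8, 27.3, 17.4 and 22.7 with clone H, 21.5, 33.7, 19.9 and 18.8 with clone K, and 56.6, 75.7, 56.2 and 79.7 with clone M. The other lines gave 47.2, 45.6, 54.3 and 47 CPM with clone N, 43.9, 46.7, 49.6 and 49.9 with clone T, 18, 30.04, 12.8 and 15.4 with clone V, and 43.3, 48.3, 56.2 and 70.1 with KPC1. The lowest co-culture library, clone V replicate 3 at 12.8 CPM, was well above the highest mono-culture library at 1.52 CPM. The fold increase was 64.2 with clone M (SE of the log2 value 0.288, adjusted p = 8.54e-16), 52.2 with KPC1 (3.36e-15), 51.2 with clone E (3.82e-15), 46.5 with clone N (7.58e-15) and 45.5 with clone T (8.75e-15). It was smaller with clone K, at 22.4 (2.83e-12), clone H, at 22.4 (1.28e-12), and clone V, at 18.3 (2.46e-12). Group means were 47.5 to 67.1 CPM with the first 5 lines and 19.03 to 23.5 CPM with the last 3, and the neighbours across the gap, clones T and K, differed (adjusted p = 2.72e-04). The 15 called pairs of the 28 were those between clone M, E, N or T or KPC1 and clone K, H or V. The mean sums of the epithelial list were 108.6, 160.8 and 176 CPM with clones V, K and H, the 3 lines of lower Fap. They were 264 to 552 CPM with the other 5. Among those 5 the orders were not shared. Clone M had the lowest sum, 264 CPM, and the highest Fap, 67.1 CPM, whereas clone N had the highest sum, 552 CPM, at 48.5 CPM of Fap. Within groups, the library highest in that list was lowest in Fap in 6 of the 8 co-cultures. The part of tumour cell RNA in the Fap result was not tested. This order, like that of Pdgfb and Thy1, was looked at after the values were seen.

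Thy1 (THY1, also called CD90; ENSMUSG00000032011, chromosome 9, 44043384 to 44048579, plus strand in GRCm38), a lipid-anchored glycoprotein used to sort fibroblasts, rose with 6 lines. Its level was 176 to 212 CPM in mono-culture, 183 to 248 CPM with clone K and 189.6 to 239 CPM with clone M, and these groups overlapped (adjusted p = 0.469 and 0.515). With the other 6 lines every library was above the mono-culture range, from 235 to 317 CPM with clone H (1.39-fold, adjusted p = 0.00356) to 306 to 389 CPM with clone N (1.81-fold, adjusted p = 6.81e-06). KPC1 gave 341 ± 49.96 CPM, beside 195 ± 15.7 CPM in mono-culture (SD, n = 4 each). In 5 of 8 co-cultures the library highest in the epithelial list was lowest in Thy1.

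Pdpn (podoplanin; ENSMUSG00000028583, chromosome 4, 143267431 to 143299564, minus strand in GRCm38), a mucin-like membrane glycoprotein that ties to the cytoskeleton through ezrin and moesin, fell with 5 lines. Mono-culture libraries spanned 132 to 151 CPM. The lowest group was clone M at 64.8 to 90.1 CPM (1.83-fold lower, log2 fold change −0.87, SE 0.156, adjusted p = 9.68e-05). Clones K, T and E and KPC1 were 1.71-, 1.67-, 1.49- and 1.57-fold lower, and in these 5 groups no library reached the mono-culture range. Clone H libraries, at 99.9 to 124 CPM, also lay below that range, with an adjusted p of 0.0786 (0.0376 without clone N replicate 4, 0.0287 without scaling beyond library size). Clone V overlapped with mono-culture at 130.4 to 142 CPM (log2 fold change −0.05, SE 0.154). Clone N had the widest spread, 86.1, 104, 119.9 and 174 CPM, and its log2 fold change of −0.21 (adjusted p = 0.294) became −0.43 (adjusted p = 0.0178) without replicate 4.

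**Figure D5:**
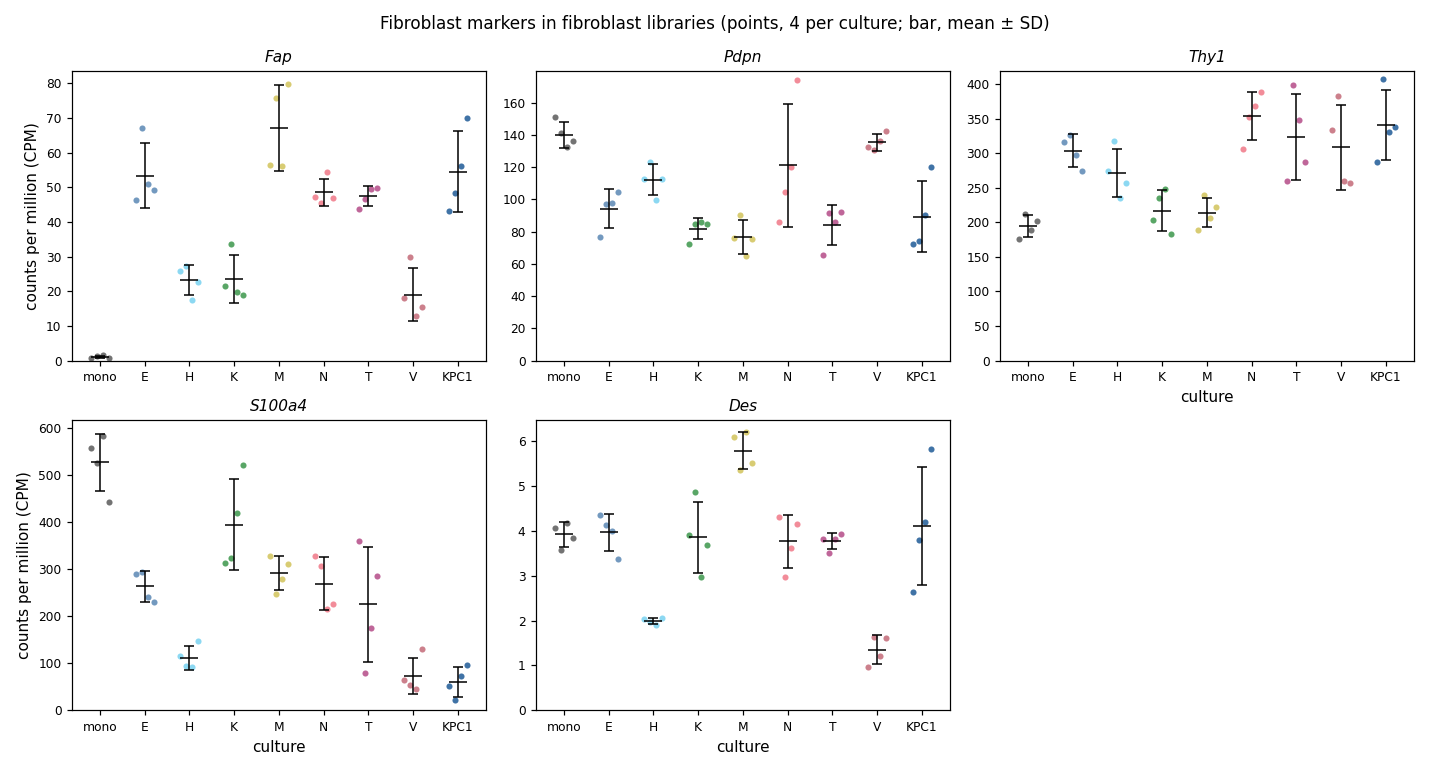
Levels of Fap, Pdpn, Thy1, S100a4 and Des in each library (points, CPM on linear axes from 0), by culture, with the mean and SD of 4 libraries. Fap is at most 1.52 CPM in mono-culture and at least 12.8 CPM in co-culture, S100a4 is highest in mono-culture at a mean of 527 CPM, and Des is at most 2.05 CPM with clones H and V.

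S100a4 (ENSMUSG00000001020, chromosome 3, 90603771 to 90606045, plus strand in GRCm38), a small calcium-binding protein also called fibroblast-specific protein, fell with 6 lines. In mono-culture it had 557, 525, 584 and 444 CPM. It had 289, 294, 240.2 and 231 CPM with clone E, 115, 93.4, 92.3 and 147 with clone H, 313, 324, 420.1 and 522 with clone K, and 329, 247, 279 and 312 with clone M. The other lines gave 329, 307, 216 and 226 CPM with clone N, 359, 79.9, 176 and 286 with clone T, 64.2, 53.3, 45.9 and 129.8 with clone V, and 52.3, 21.8, 73.2 and 96.3 with KPC1. Apart from clone K, of which 1 library lay inside the mono-culture range, every co-culture library was below every mono-culture library. The level was 8.66-fold lower with KPC1 (log2 fold change −3.11, SE 0.377, adjusted p = 5.75e-08), 7.2-fold lower with clone V (adjusted p = 1.99e-07), 4.71-fold with clone H (adjusted p = 7.79e-06) and 2.34-fold with clone T (adjusted p = 0.00452). Clones E and N gave 2- and 1.96-fold (adjusted p = 0.0282 and 0.0277), and clone M, 1.81-fold lower, an adjusted p of 0.0761. The clone E call was lost without mono-culture replicate 1, 2 or 3 or clone E replicate 3 or 4 (highest adjusted p 0.074), and the clone N call without mono-culture replicate 3 or clone N replicate 3 or 4 (highest 0.0831), and both were lost without the filter on low counts (0.0619 and 0.0556). Among the fits that left out 1 library, a call for clone M was gained without clone T replicate 2, clone V replicate 4 or KPC1 replicate 2 (lowest 0.0398). It was also gained in a fit of only the clone M and mono-culture libraries (1.36e-04) and with a block for same-numbered libraries (0.0407). Clone T libraries spread over 79.9 to 359 CPM.

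Des (desmin; ENSMUSG00000026208, chromosome 1, 75360329 to 75368579, plus strand in GRCm38), the intermediate filament of muscle and stellate cells, was low, on 19 to 108 counts per library. It ranged over 3.58 to 4.18 CPM in mono-culture. With clone H it was at 1.91 to 2.05 CPM and with clone V at 0.967 to 1.64 CPM, both below every mono-culture library (1.96-fold lower, adjusted p = 6.34e-05, and 2.88-fold lower, adjusted p = 8.44e-08). With clone M it was above every mono-culture library at 5.34 to 6.19 CPM (1.48-fold higher, adjusted p = 0.0218), a call lost without mono-culture replicate 2 or 4 or clone M replicate 1 or 3 (highest adjusted p 0.0658). Clones E, K, N and T and KPC1 overlapped with mono-culture. Averaged over the clones, the log2 fold change was −0.29 (SE 0.135, adjusted p = 0.0725), with an adjusted p of 0.0347 without scaling beyond library size.

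Every member differed among the tumour clones: all 10 were called in the F-test among the 7 clones, where 67.5% of genes were. Adjusted p-values ran from 2.12e-09 for Des, 6.71e-09 for Pdgfc and 7.52e-09 for Fap to 0.0132 for Pdgfb. Between the highest and the lowest co-culture mean, S100a4 differed 6.49 times (clone K and KPC1), Pdgfb 5.35 times (KPC1 and clone M), Des 4.27 times (clones M and V), Fap 3.52 times (clones M and V) and Pdgfra 3.31 times (clones M and V). The other 5 spanned 1.65 times (Pdgfa, clones K and E, and Thy1, clones N and M) to 2.40 times (Pdgfrb, clones E and V). Over the 28 pairs of co-cultures, which share libraries, 130 of 280 combinations of a member and a pair were called (46.4%), beside 27.5% of such combinations over all genes. Pdgfc was called in 18 pairs, Pdgfra in 17, Des in 16, Fap in 15, S100a4 in 14, Thy1 in 13, Pdpn in 11, Pdgfa in 10, and Pdgfb and Pdgfrb in 8 each.

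Ordered by mean CPM over the 9 groups, few neighbours were told apart. For Pdgfc, clone V at 62 ± 3.998 CPM differed from clone K at 42 ± 4.05 CPM (SD, n = 4 each, adjusted p = 2.15e-04), and clone M, the lowest co-culture, from mono-culture. For Fap the gaps lay between clones T and K and between clone V and mono-culture. Des differed between clone M and KPC1 (adjusted p = 0.0201) and between clones N and H (4.10e-04), Thy1 between clones H and K (0.0469), Pdgfra between clones N and T, and Pdgfb between clone M and mono-culture. No neighbours were told apart for Pdgfa (clone K, KPC1, T, V, H, N, mono-culture, M, E), Pdgfrb (clone E, T, N, M, K, KPC1, H, V, mono-culture), Pdpn (mono-culture, V, N, H, E, KPC1, T, K, M) or S100a4 (mono-culture, K, M, N, E, T, H, V, KPC1). Clones H and V were neighbours for 6 members and were told apart for none of these, Pdgfa (adjusted p = 0.854), Pdgfb (0.985), Pdgfrb (0.528), Fap (0.603), S100a4 (0.502) and Des (0.24). They were told apart for Pdgfc (0.0209), the only member called between them. Likewise, 1 member was called between clones E and N, and 1 between clone T and KPC1.

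On the length-scaled measure, the order of the members differed between cultures. In mono-culture S100a4 had the highest mean level at 1106 RPKM, followed by Thy1 at 117 RPKM, Pdgfrb at 111 RPKM, Pdpn at 80.6 RPKM and Pdgfra at 47.7 RPKM. Fap was the lowest at 0.391 RPKM, next to Pdgfb at 0.404 RPKM and then Des at 1.35 RPKM. With KPC1 the highest were Thy1 at 192.5 RPKM and Pdgfrb at 179 RPKM, ahead of S100a4 at 119.9 RPKM, and Fap stood at 18.6 RPKM, above Pdgfra at 15.3 RPKM. S100a4 was still the highest with clones E, H, K, M, N and T, at 222 to 802 RPKM, and Thy1 was with clone V. Fap was above Pdgfra with KPC1 only. Over the co-cultures, group means of S100a4 ran from 119.9 to 802 RPKM and those of Fap from 6.46 to 24.1 RPKM. In mono-culture the most abundant ligand transcript was Pdgfa at 7.29 RPKM, ahead of Pdgfc at 5.37 RPKM and Pdgfb at 0.404 RPKM. In co-culture, group means were 8.17 to 17.2 RPKM for Pdgfc, 6.36 to 10.5 RPKM for Pdgfa and 1.33 to 6.69 RPKM for Pdgfb.

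Further genes of the pathway came from lists that were chosen with earlier results of these data known. Counts refer to the mean of the 7 clones, where 24.3% of all genes rose and 24.9% fell. Of 6 other PDGF ligands, receptors and binding proteins, 2 rose, 1 fell and 3 were not called (median log2 fold change 0.64, beside 0.01 over all genes). The co-receptor Nrp1, neuropilin-1, rose (log2 fold change 1.10, SE 0.154, adjusted p = 7.08e-07, 128 ± 11.8 CPM in mono-culture), as did Nrp2 (log2 fold change 0.66, SE 0.141, adjusted p = 2.70e-04, 101 ± 11.5 CPM in mono-culture). Pdgfd, a ligand of PDGFRβ, fell (log2 fold change −1.32, SE 0.238, adjusted p = 3.07e-05, 8.19 ± 1.13 CPM in mono-culture), and its level was 1.24 ± 0.784 CPM with clone V and 8.47 ± 0.734 CPM with clone M (SD, n = 4 each). Of 5 proteases tested that process PDGF chains, 2 rose and none fell (median 0.46). Plat, the tissue plasminogen activator, which cleaves PDGF-C, rose (log2 fold change 1.10, SE 0.151, adjusted p = 5.06e-07, 112 ± 10.9 CPM in mono-culture), and so did Furin, which cleaves the A and B precursors (log2 fold change 0.46, SE 0.0823, adjusted p = 2.99e-05, 95.2 ± 5.2 CPM in mono-culture).

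Of 33 genes of PDGF receptor signalling, 10 rose (30.3%) and 5 fell (15.2%, median 0.04), so that the share called was 45.5%, near the 49.2% of all genes, and the counts became 8 and 9 without scaling beyond library size. Sos2, an exchange factor that passes the receptor signal towards the MAP kinases, rose (log2 fold change 0.60, SE 0.0935, adjusted p = 4.20e-06, 30.9 ± 2.9 CPM in mono-culture). Pik3r2, a subunit of PI 3-kinase, fell (log2 fold change −0.42, SE 0.0776, adjusted p = 4.59e-05, 235 ± 15 CPM in mono-culture). Of 16 feedback genes, 11 rose (68.8%) and 1 fell (6.25%, median 0.45), or 11 and 3 without scaling beyond library size. Dusp4 and Dusp6 encode phosphatases that switch off MAP kinases and are induced by them. Dusp4 rose (log2 fold change 2.09, SE 0.195, adjusted p = 5.89e-10, 30.9 ± 1.7 CPM in mono-culture), from 68.4 ± 19.7 CPM with clone M to 219.5 ± 51.5 CPM with KPC1, and Dusp6 rose (log2 fold change 2.06, SE 0.323, adjusted p = 5.52e-06, 28.4 ± 16.6 CPM in mono-culture). The gene that fell was Spry2, an inhibitor of receptor tyrosine kinase signalling (log2 fold change −0.66, SE 0.134, adjusted p = 1.38e-04, 83.6 ± 9.18 CPM in mono-culture).

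Of 19 other surface proteins used for cancer fibroblasts, 7 rose (36.8%) and 3 fell (15.8%, median 0.23), a share called of 52.6%, near that of all genes, and 6 rose and 3 fell without scaling beyond library size. Cdh11, a mesenchymal cadherin, rose with every line by 2.65 to 2.95 on the log2 scale (log2 fold change 2.75, SE 0.231, adjusted p = 7.64e-11, 56 ± 7.15 CPM in mono-culture), and Mcam, shared with the pericyte list, rose on average (log2 fold change 2.25, SE 0.367, adjusted p = 9.52e-06, 9.22 ± 0.758 CPM in mono-culture). Mme, the peptidase CD10, fell (log2 fold change −3.12, SE 0.18, adjusted p = 5.03e-14, 76.7 ± 18.8 CPM in mono-culture), to 1.86 ± 0.495 CPM with KPC1, and Cd34 fell (log2 fold change −1.39, SE 0.119, adjusted p = 9.65e-11, 221 ± 16.2 CPM in mono-culture). Among 4 peptidases related to Fap, none rose and 2 fell (median −0.11), Dpp7 (log2 fold change −1.22, SE 0.103, adjusted p = 6.59e-11, 105 ± 12.3 CPM in mono-culture) and Dpp8 (log2 fold change −0.32, SE 0.0961, adjusted p = 0.00647, 123 ± 6.92 CPM in mono-culture). Of 7 podoplanin partners, 4 rose and 1 fell (median 0.63): Ezr, ezrin, which epithelial cells also express, rose (log2 fold change 2.28, SE 0.402, adjusted p = 2.87e-05, 15.8 ± 1.16 CPM in mono-culture), Cd44, the hyaluronan receptor, rose (log2 fold change 1.15, SE 0.117, adjusted p = 2.09e-09, 156 ± 10.5 CPM in mono-culture), and Rdx, radixin, fell (log2 fold change −0.24, SE 0.061, adjusted p = 0.00146, 262 ± 6.11 CPM in mono-culture). Of 10 genes tested on the S100 list, which also holds S100pbp, 2 rose and 4 fell (median −0.28), or 1 and 6 without scaling beyond library size. S100a1 and S100a16, like S100a4, fell (log2 fold change −0.88, SE 0.117, adjusted p = 2.94e-07, 62.5 ± 3.42 CPM in mono-culture, and log2 fold change −0.70, SE 0.152, adjusted p = 3.12e-04, 31.5 ± 4.61 CPM in mono-culture), and S100a11 rose (log2 fold change 0.26, SE 0.092, adjusted p = 0.0188, 326 ± 25.9 CPM in mono-culture). Of 8 genes of desmin-related filaments and linkers, none rose and 3 fell (median −0.07), among them Cryab, a small heat shock protein that binds desmin (log2 fold change −1.28, SE 0.167, adjusted p = 2.51e-07, 74.9 ± 6.19 CPM in mono-culture), and Sync, syncoilin (log2 fold change −0.97, SE 0.154, adjusted p = 5.64e-06, 8.62 ± 1.08 CPM in mono-culture).

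The genes whose log2 CPM followed each member most closely over the 36 libraries, by Pearson's r among 11695 genes, are given as a description, since libraries share groups and scaling. They were Bdnf (0.75) and Cpeb2 (0.74) for Pdgfa, Podxl (0.96) and Cxadr (0.95) for Pdgfb, and Alcam (0.90) and Inhba (0.89) for Pdgfc. The receptors were followed by Synpo (0.98) and C1s (0.97) for Pdgfra and by Notch3 (0.92) and Clip2 (0.90) for Pdgfrb. For the markers they were Klrb1c (0.95) and Hey1 (0.95) for Fap, Cd63 (0.82) and Cpne3 (0.81) for Pdpn, Herpud2 (0.87) and B4galt5 (0.85) for Thy1, C1rl (0.95) and Park7 (0.95) for S100a4, and Gpd1l (0.87) and Rtn4rl1 (0.85) for Des.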

How the data were processed

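A strand-specific poly(A) kit (Agilent SureSelect) was used, with 76 base-pair paired-end sequencing. The submitters' processing notes name STAR, featureCounts, edgeR and the build mm10, without versions or roles, and the annotation and the strand setting of the counting are not given in the sources used here. The authors deposited a table of raw read counts per gene (39017 genes) and a table of RPKM values (37746 genes), whose scaling was 0.999668 to 1.00023 times that given by the library totals.

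From the counts, 14439 genes passed edgeR's filterByExpr over 9 groups. TMM scaling, glmQLFit (robust) and glmQLFTest were run on all 36 libraries with no covariates (R 4.3.3, edgeR 4.0.16), with Benjamini-Hochberg adjustment over all genes tested (threshold 0.05). Contrasts were each co-culture against mono-culture, the mean of the 7 clones against mono-culture, an F-test among clones, and 28 pairs of co-cultures. Libraries of a group differed by more than sampling noise (chi-square per degree of freedom at least 5.631), so all were counted. A gene with 3 counts or fewer in a library was taken as at the floor, which covers counting error only. Log2 CPM for likeness used a prior count of 1. Gene positions came from a GENCODE annotation of the same build.

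The members and lists were chosen with earlier results of these data known. All 10 members are named. From each list, up to 2 highest and 2 lowest called log2 fold changes in the mean of the clones, at a mean of at least 2 CPM, are named, and for each member the 2 genes of highest Pearson r. Some genes that this rule names are not reported here. Alternatives were DESeq2 1.42.0, RLE scaling, library size alone, a minimum of 10 counts in each library, no filter, a replicate block, limma 3.58.1 on log2(RPKM + 1) and log2(RPKM + 0.1), a threshold of 0.1, only the libraries compared, and leaving out each library. The fits were tested on simulated data.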

Additional observations from a re-analysis of the deposited data

Results flagged for a closer look

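All 10 members differed among the 7 clones in edgeR's quasi-likelihood F-test, where 67.5% of all genes tested were called. Benjamini-Hochberg adjusted p-values were 2.12e-09 for Des, 6.71e-09 for Pdgfc, 7.52e-09 for Fap, 1.05e-07 for Pdgfra, 1.44e-05 for S100a4, 4.69e-05 for Thy1, 5.63e-05 for Pdpn, 1.09e-04 for Pdgfa, 1.66e-04 for Pdgfrb and 0.0132 for Pdgfb. Since the clones share the mono-culture libraries, the F-test is also the test of whether their changes against mono-culture differ. Des is the member whose called changes took opposite signs, 5.34 to 6.19 CPM with clone M and 0.967 to 1.64 CPM with clone V, against a mono-culture mean of 3.92 CPM.

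In 4 of 90 sets of 4 libraries (10 members in 9 groups) 1 library lay far from the other 3, with a gap to the nearest one above Dixon's critical share of the whole range, where 4.5 sets are expected by chance at 1 in 20. They were Pdgfrb with clone M replicate 2 (0.890 of the range), Pdpn with clone K replicate 1 (0.8785), Pdgfa with clone V replicate 3 (0.8695) and Pdgfrb with KPC1 replicate 3 (0.853).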

How the results depend on the processing

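Of the 90 log2 fold changes of members against mono-culture, 89 kept their direction and call in DESeq2, 88 with RLE scaling, 82 with library size alone, 85 without the filter on low counts, 85 with at least 10 counts in every library, 82 by limma on log2(RPKM + 1), 83 on log2(RPKM + 0.1), 86 with only the libraries compared and 87 at a threshold of 0.1. Only the libraries compared gave no value for the pairs of co-cultures. Reversals were found only for members without a call, and their cause was not tested. Des with clone E became −0.0374 with library size alone, −0.0013 with at least 10 counts, −0.0231 on log2(RPKM + 1) and −0.0374 on log2(RPKM + 0.1), and Des with KPC1 became −0.0205 with library size alone, −0.0295 on log2(RPKM + 1) and −0.0677 on log2(RPKM + 0.1). Over the fits without 1 library, 3144 of 3240 values kept direction and call, 79 lost and 8 gained a call and 9 changed sign: ranges were −0.138 to 0.0246 for Pdgfa with clone M, −0.0337 to 0.0941 for Pdgfra with clone M, and for Des −0.0239 to 0.0793 with clone E, −0.148 to 0.0844 with clone K, −0.148 to 0.0468 with clone N and −0.141 to 0.225 with KPC1. In these fits the number of members called against mono-culture moved by at most 2. The main fit did not take same-numbered libraries as pairs. Deviations of same-numbered libraries from their group means had correlations of −0.582 to 0.461 (median −0.0233, 5 of 32 over 0.1) between co-cultures and mono-culture, and of −0.519 to 0.693 (median 0.143, 63 of 112 over 0.1) between co-cultures. All 4 were over 0.1 in 3 of the 28 pairs of co-cultures, clones E and K, K and V, and T and KPC1, in which 13 member calls were made with and without the block. The replicate block joined same-numbered libraries of all groups, mono-culture included. With this block, Pdgfa lost its call in the mean of the clones (0.24, adjusted p = 0.0519), Pdpn with clone H (−0.33, 0.0358) and S100a4 with clone M (−0.89, 0.0407) gained one, and 87 of 90 were kept. All 10 members were called among the clones with the block (10779 genes against 9749), and calls over the 28 pairs went from 130 to 136, with Fap between clones M and T (0.0305) among the 6 gained. Library size alone shifted the median log2 fold change of all genes by −0.095 at most. Depth limits Pdgfb, Fap and Des most, at lowest counts of 11, 14 and 19 in a library.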
